A study of Mus musculus with 6 samples.

Results

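The interferon-inducible genes Ifi27, Ifi35, Ifi44, Xaf1, Rtp4, Apol9a and Apol9b, which were grouped as outside other large gene families, were followed in mouse ovaries. These 7 of 18280 genes in the table were taken by symbol and chosen by their measured log2 fold change between transgenic and wild-type ovaries, which was strongly negative. That difference is therefore described below without a test. Total ovarian RNA was sequenced from 3 Dennd1a transgenic mice (Dennd1aTG, here TG) and 3 wild-type mice (WT), and both genotypes had received PMSG, a gonadotropin with FSH activity, 44 h earlier. DENND1A is an exchange factor for a Rab GTPase of endocytic traffic, and the study asks what its excess does to the FSH response of the ovary. The promoter that drives the transgene, the number of founder lines, the strain and the age of the animals are not given in the sources used here. All 7 genes had enough counts to enter the fit over 14124 genes.

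Type I interferons bind a receptor whose kinases activate transcription factors, and these bind a DNA motif, the interferon-stimulated response element (ISRE). Genes that carry this element rise in many cell types, and they are also transcribed at a low basal level without infection. The 7 genes do different things. Ifi27 encodes a small hydrophobic protein of mitochondrial and nuclear membranes linked to apoptosis, and Xaf1 a zinc-finger protein that antagonises the caspase inhibitor XIAP. Ifi35 encodes a leucine-zipper protein that pairs with NMI. Ifi44 encodes a cytoplasmic protein with a GTP-binding motif. Rtp4 encodes a chaperone that helps some G protein-coupled receptors reach the cell surface and that also limits viruses. Apol9a and Apol9b encode near-identical apolipoproteins L that bind phospholipids in the cell.

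Of the 7 genes, 5 had a reference promoter window from RefSeq on GRCm38.p6, 250 bases before to 50 bases after an annotated start. Up to 110 bases before the most upstream start that has a window are shown for 4 of them, 5′ to 3′ on the strand of the gene, to show what lies next to genes that were lower together. Each stretch was shortened so that it holds at most 30 bases of a GENCODE M21 exon, because annotated transcripts of these genes begin at more than 1 place. For Xaf1 that stretch lies inside the annotated span of the gene and is not shown. Capitals mark matches on either strand to the ISRE core, which is GAAA, any 2 bases and GAAA again.
Apol9a, chr15:77411106-77411190, minus strand: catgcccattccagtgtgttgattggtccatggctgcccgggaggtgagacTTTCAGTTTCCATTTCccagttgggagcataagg
Apol9b, chr15:77728962-77729068, plus strand: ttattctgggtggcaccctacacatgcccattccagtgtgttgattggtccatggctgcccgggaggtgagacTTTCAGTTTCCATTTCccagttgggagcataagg
Ifi44, chr3:151749931-151750020, minus strand: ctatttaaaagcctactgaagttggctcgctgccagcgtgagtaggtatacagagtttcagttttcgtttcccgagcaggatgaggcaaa
Ifi35, chr11:101448302-101448411, plus strand: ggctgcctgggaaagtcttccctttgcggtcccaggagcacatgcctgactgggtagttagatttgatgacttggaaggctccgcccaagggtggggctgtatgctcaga

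Apol9a and Apol9b each held a pair of overlapping ISRE cores on the opposite strand. Counted from the most upstream start that has a window, which lies beyond the end of the stretches shown, the matches lay at -59 to -50 and at -53 to -44 in Apol9a and, in Apol9b, at -37 to -28 and at -31 to -22. Both stretches hold 30 bases annotated as exon in GENCODE M21, and in Apol9b the annotated span of the gene begins at base 77729047, inside the motif. The matches therefore need not lie upstream of every annotated transcript start. Aligned on this motif, the promoter windows of both genes were identical over all 327 bases that could be compared, with 0 differences. The ISRE core occurred in 3.44% of all 32851 promoter windows and in 3.99% of the 27025 genes with a window. The windows of Ifi44, Xaf1 and Ifi35 did not hold these letters at this fixed spacing, and no other spacing was searched. In the Ifi44 stretch shown, GAAA recurs on the opposite strand at other spacings, and the Xaf1 window held a near match that was not counted. A missing match therefore does not show that an ISRE-like element is absent. With the last base of the core dropped (both strands), a choice made after seeing the sequences, 3 of the 5 genes had a match against 9.76% of all genes, the third being Ifi44 with a match that spans its start. The letters TTCNNNGAA of the gamma-activated site, which read the same on both strands, occurred in Ifi35 from 8 to 16 bases after its start and in 9.55% of all genes. A match of letters is a description of the sequence and not a measured binding site.

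Some libraries stood apart in genes of other tissue. The adipocyte gene Cfd measured 86.8 CPM (counts scaled to the effective library size) in TG replicate 2 and at most 9.45 CPM in the other libraries. The oviduct gene Ovgp1 reached 40.9 CPM and the muscle gene Des 126 CPM in WT replicate 3, against at most 5.99 and 40.5 CPM elsewhere. Dennd1a measured 570 to 588 CPM in the TG and 39.5 to 49.3 CPM in the WT libraries, as the labels call for, and library totals ran from 17075484 to 18516171 estimated counts. Markers of the ovary were abundant in both genotypes: the summed level of 7 granulosa genes was 5194 to 5904 CPM in TG and 4771 to 6096 CPM in WT, and 6 oocyte genes summed to 132 to 145 and 98.5 to 193 CPM.

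Every TG library lay below every WT library for all 7 genes. Over all 14124 genes 5.04% had this order, and edgeR, a count model, called 1.05% at an adjusted p under 0.05, with 1.02% lower and 0.0354% higher in TG. All 7 genes were among the called genes, as their choice implies. The log2 fold changes of TG over WT ranged from -3.52 for Apol9a to -1.21 for Ifi35, with a median of -2.62, and the median over all tested genes was 0.00193. In RNA from whole ovaries, fewer cells of a type that transcribes a gene and less RNA per cell cannot be told apart.

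Ifi27 (Entrez gene 52668, chromosome 12, 103434189 to 103440245) was the most abundant of the 7. It measured 87.2, 93.2 and 93.2 CPM in the TG libraries and 226, 235 and 232 CPM in the WT libraries, in the order of replicates 1 to 3. The libraries of each genotype were close together and the genotypes far apart, at 91.2 ± 3.45 CPM in TG against 231 ± 4.44 CPM in WT (SD, n = 3 each), a level 2.54-fold higher in WT. Its span in the reference lies within that of its relative Ifi27l2a, and whether the counting used strand is not given in the sources used here.

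Xaf1 (Entrez gene 327959, chromosome 11, 72301461 to 72313733), whose product opposes XIAP, measured 10.6, 10.6 and 10.4 CPM in TG and 56.2, 43.0 and 60.7 CPM in WT replicates 1 to 3. The TG libraries were almost equal, whereas WT replicate 2 lay below the other WT libraries. The group levels were 10.6 ± 0.10 and 53.3 ± 9.24 CPM (SD, n = 3 each), so that TG held 19.8% of the WT level.

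Ifi35 (Entrez gene 70110, chromosome 11, 101448412 to 101458701), which encodes the NMI partner, had the smallest difference. It measured 25.9, 30.9 and 30.7 CPM in TG and 62.3, 61.5 and 78.0 CPM in WT replicates 1 to 3. WT replicate 3 was the highest library, and the lowest WT library was still 1.99 times the highest TG library. The means of 29.2 ± 2.86 and 67.3 ± 9.29 CPM (SD, n = 3 each) differed 2.31-fold.

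Ifi44 (Entrez gene 99899, chromosome 3, 151730922 to 151749910), which encodes a protein with a GTP-binding motif, measured 12.0, 10.5 and 11.7 CPM in TG and 110, 76.1 and 112 CPM in WT replicates 1 to 3. WT replicate 2 was again the lowest WT library. The means were 11.4 ± 0.776 and 99.5 ± 20.2 CPM (SD, n = 3 each), and TG held 11.5% of the WT level.

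Rtp4 (Entrez gene 67775, chromosome 16, 23520219 to 23614222), the receptor chaperone, measured 26.5, 21.4 and 26.8 CPM in TG and 154, 124 and 184 CPM in WT replicates 1 to 3. Replicate 2 was the lowest library in each genotype. The means of 24.9 ± 3.04 and 154 ± 30.4 CPM (SD, n = 3 each) differed 6.17-fold. Without TG replicate 2 and WT replicate 3, the libraries with fat and oviduct genes, its log2 fold change was -2.38 in place of -2.62.

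**Figure D1:**
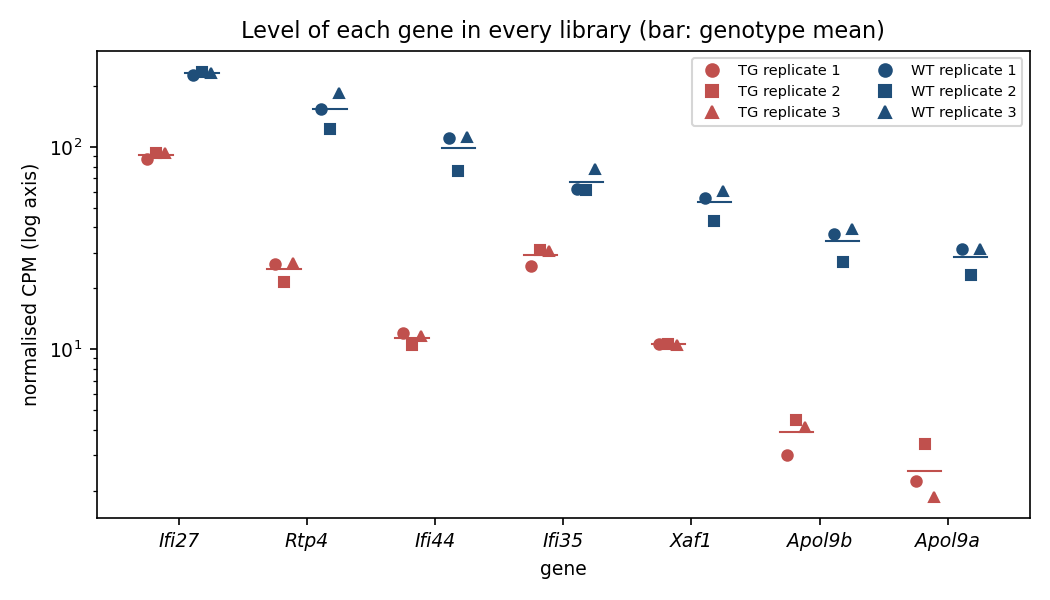
Normalised CPM on a log axis of the 7 genes in each of the 6 libraries, with symbols for the replicates and a bar for the mean of each genotype. All TG points lie below all WT points of the same gene, the TG means run from 2.49 CPM for Apol9a to 91.2 CPM for Ifi27, and CPM compares libraries of a gene and not genes of different length.

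The apolipoprotein pair had the lowest TG levels per length. Apol9a (Entrez gene 223672, chromosome 15, 77403789 to 77411080) measured 2.22, 3.39 and 1.87 CPM in TG and 31.2, 23.3 and 31.4 CPM in WT replicates 1 to 3. Apol9b (Entrez gene 71898, chromosome 15, 77729047 to 77736382) measured 3.00, 4.48 and 4.14 CPM in TG and 37.2, 27.1 and 39.1 CPM in WT replicates 1 to 3. In both genes TG replicate 2 was the highest TG library and WT replicate 2 the lowest WT library. The fold was 11.5 for Apol9a and 8.90 for Apol9b.

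How these counts divide between the 2 genes is an estimate. Over the 930 coding bases of each, taken from the GENCODE M21 transcripts and annotation on GRCm38, the genes differed at 14 bases, 98.5% were identical, and the longest identical stretch was 446 bases. The 90 coding bases with the most differences, coding positions 490 to 579, are shown because reads from such stretches can be assigned to a gene, with the 7 differing bases in capitals.
Apol9a, chr15:77404587-77404676, minus strand: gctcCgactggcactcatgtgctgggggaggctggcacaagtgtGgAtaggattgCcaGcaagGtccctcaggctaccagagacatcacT
Apol9b, chr15:77735495-77735584, plus strand: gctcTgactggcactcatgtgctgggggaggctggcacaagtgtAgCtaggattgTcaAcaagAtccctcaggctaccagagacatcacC
Of all distinct 100-base words of the protein-coding transcripts, 40.0% of those of Apol9a were also found in Apol9b and 36.7% of those of Apol9b in Apol9a. With 50-base words the shares were 55.3% and 52.3%, and Apol9b or Apol9a was the only other gene that held them. The read length is not given in the sources used here. Among the other members, Rtp4 shared 9.28% of its 100-base words and 11.6% of its 50-base words with the gene model Gm45338. Xaf1 shared 0% of its 100-base words and 2.75% of its 50-base words with other genes, and Ifi27, Ifi35 and Ifi44 shared 0% at both lengths.

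Counts of Apol9a and Apol9b were fractional in all 6 libraries, and their sums were whole numbers in all 6. TG replicates 1 to 3 held 94, 137 and 103 counts of the pair and WT replicates 1 to 3 held 1268, 922 and 1201. Summed before the fit, the pair had a log2 fold change of -3.31, with 6.36 ± 1.36 CPM in TG against 63.1 ± 11.0 CPM in WT (SD, n = 3 each). Apol9a took 45.5%, 46.2% and 44.6% of the pair's counts in WT replicates 1 to 3 and 42.7%, 42.7% and 31.3% in TG replicates 1 to 3. The share in TG replicate 3 was the lowest of all, and it rests on 103 counts. The difference of the pair between the genotypes therefore does not depend on the division of reads, whereas the difference between the folds of Apol9a and Apol9b does. The other 5 genes had whole counts in all 6 libraries.

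**Figure D2:**
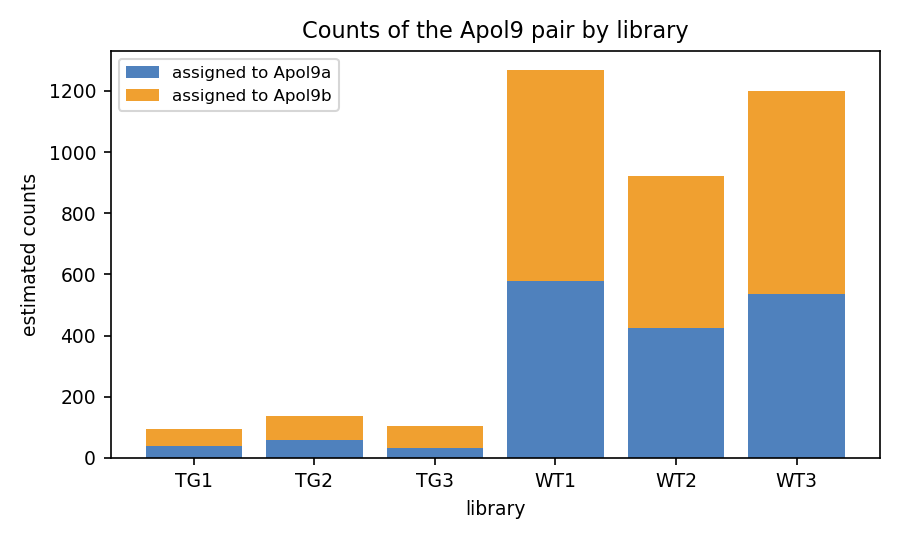
Estimated counts of the Apol9 pair in each library, stacked as the part assigned to Apol9a and the part assigned to Apol9b, on a linear axis from 0. The TG bars reach 94 to 137 counts and the WT bars 922 to 1268, and Apol9a holds 42.7% to 46.2% of the counts in every library except TG replicate 3, where it holds 31.3%.

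Levels of different genes can be compared per length, on the FPKM scale (fragments scaled to gene length and library total). In WT the order was Ifi27 at 272 ± 2.94 FPKM, Rtp4 at 109 ± 21.6, Ifi35 at 56.4 ± 7.63, Xaf1 at 37.1 ± 7.38, Ifi44 at 36.6 ± 7.59, Apol9b at 25.2 ± 4.83 and Apol9a at 21.3 ± 3.51 FPKM (SD, n = 3 each). The library ranges of neighbours in this order overlapped between Xaf1 and Ifi44, between Ifi44 and Apol9b, and between Apol9b and Apol9a. Within each WT library, however, Ifi44 lay above Apol9b and Apol9b above Apol9a. Ifi44 lay above Xaf1 in WT replicate 1 and below it in WT replicates 2 and 3, so that their places are not resolved. The order within the Apol9 pair rests on the estimated division of reads. Every library of Xaf1 lay above every library of Apol9b and Apol9a, and every library of Ifi44 above every library of Apol9a. In TG the order was Ifi27 at 108 ± 2.84 FPKM, Ifi35 at 24.5 ± 2.12, Rtp4 at 17.7 ± 2.35, Xaf1 at 7.45 ± 0.365, Ifi44 at 4.21 ± 0.327, Apol9b at 2.87 ± 0.552 and Apol9a at 1.84 ± 0.531 FPKM. There, Apol9b and Apol9a were the only neighbours whose library ranges overlapped, and Apol9b lay above Apol9a in every TG library. Rtp4 lay above Ifi35 in every WT library and below it in every TG library. Ifi27 made up 48.8% of the summed FPKM of the 7 genes in WT and 64.8% in TG.

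The spread between WT animals was not used to choose the genes. Ifi27 differed from the other 6 here, with a coefficient of variation of 1.92% over the WT animals, against 13.8% for Ifi35, 16.1% for Apol9a, 17.3% for Xaf1, 18.6% for Apol9b, 19.8% for Rtp4 and 20.3% for Ifi44. The median over the 11545 genes with a mean of at least 5 CPM was 9.0% in WT and 7.66% in TG. In TG the coefficient was 0.95% for Xaf1, 3.78% for Ifi27, 6.82% for Ifi44, 9.82% for Ifi35, 12.2% for Rtp4, 20.1% for Apol9b and 32.0% for Apol9a. It was higher in WT than in TG for 4 of the 7 genes. The TG value of Xaf1 rests on 179 to 191 counts per library. The estimated counts per TG library were 32.28 to 58.54 for Apol9a and 53.86 to 78.46 for Apol9b. The part of counting noise in these coefficients was not tested.

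WT replicate 2 was the lowest WT library for 6 of the 7 genes, all except Ifi27. In that library Ifi44 stood at 76.5% of its WT mean, Apol9b at 78.7%, Rtp4 at 80.3%, Xaf1 at 80.6%, Apol9a at 81.4% and Ifi35 at 91.4%, and Ifi27 at 102%. WT replicate 3 was the highest WT library for the same 6 genes, between 110% and 120% of their WT means. It was the highest WT library for 56.9% of the 137 other genes called lower in TG and for 36.7% of all tested genes. WT replicate 2 was the lowest WT library for 118 of those 137, or 86.1%, against 35.8% of all tested genes. The summed level of 18 macrophage and myeloid markers was also lowest among WT libraries in replicate 2, at 471 CPM against 651 and 749 CPM in replicates 1 and 3, and its part in the pattern was not tested.

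**Figure D3:**
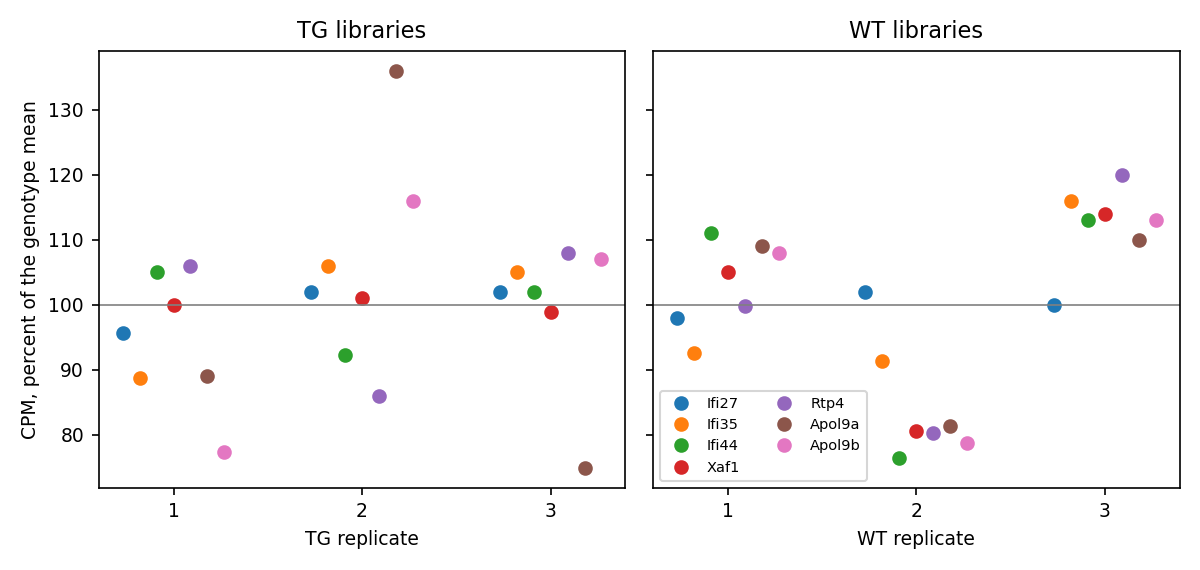
CPM of each of the 7 genes in every library as a percentage of the mean of its own genotype, TG libraries on the left and WT libraries on the right. In WT replicate 2 the genes other than Ifi27 lie between 76.5% and 91.4%, while in TG no library is low for all of them and Apol9a ranges from 74.9% to 136%.

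Relatives and binding partners of the 7 genes were tested in the same fit. Their list was written with earlier results of these libraries known. Of 25 listed genes 23 had a row in the table and 12 had enough counts, of which 3 fell and 0 rose in TG. Of all tested genes 1.02% fell and 0.0354% rose. The listed name Ifi27l1 is a synonym of Ifi27 in RefSeq.

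Ifi27l2a, the relative of Ifi27 that overlaps it on chromosome 12, fell from 74.6 ± 23.1 CPM in WT to 12.7 ± 0.760 CPM in TG (SD, n = 3 each). It measured 12.0, 13.5 and 12.6 CPM in TG and 66.1, 57.0 and 101 CPM in WT replicates 1 to 3, and edgeR gave a fold change of -2.55 on the log2 scale with SE 0.20 (95% interval -3.01 to -2.10, adjusted p = 1.35e-04). WT replicate 3 was the highest library of Ifi27l2a, and the genotypes did not overlap. Ifi27l2b had 13 counts in all TG and 40 in all WT libraries, too few to be tested.

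Nmi, which encodes the partner of the Ifi35 protein, fell from 26.9 ± 0.441 to 14.9 ± 0.909 CPM (SD, n = 3 each), with libraries of the genotypes apart. EdgeR gave -0.85 on the log2 scale with SE 0.10 (95% interval -1.08 to -0.63, adjusted p = 0.00160). Trafd1, a zinc-finger relative of Xaf1 that restrains innate immune signalling, fell from 55.2 ± 2.18 to 39.6 ± 1.11 CPM (SD, n = 3 each). EdgeR gave -0.48 on the log2 scale with SE 0.08 (adjusted p = 0.0182), with adjusted p from 5.86e-04 to 0.163 over the alternatives. The call of Trafd1 was lost without any 1 of TG replicates 1, 2 and 3 and WT replicates 1 and 3 (adjusted p between 0.0625 and 0.110), and without TG replicate 2 and WT replicate 3 together (0.163).

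The inhibitor of apoptosis genes around Xaf1 had log2 fold changes close to 0. Xiap, the caspase inhibitor that Xaf1 is named for, measured 95.01 ± 3.81 CPM in TG against 97.9 ± 5.74 CPM in WT (SD, n = 3 each), with a fold change of -0.04 on the log2 scale (95% interval -0.22 to 0.14). Birc2 had 0.06, Birc3 -0.12, Birc5 -0.06 and Birc6 0.12, each with an interval that holds 0 and an adjusted p of 0.9997 in edgeR.

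No other apolipoprotein L gene passed the test. Apol6 measured 35.5 ± 9.34 CPM in TG against 43.3 ± 22.0 CPM in WT (SD, n = 3 each), with a fold change of -0.29 on the log2 scale (95% interval -1.001 to 0.43). Apol10b, at 2.09 and 3.16 CPM, had -0.59 (95% interval -1.19 to 0.00), and Apol7e, which lies 9759 bases from Apol9b, had -0.45 (95% interval -1.20 to 0.29). The other 7 apolipoprotein L genes in the table, Apol7a, Apol7b, Apol7c, Apol8, Apol10a, Apol11a and Apol11b, had too few counts to be tested. Apol7a had 1 count in all TG and 13 in all WT libraries and Apol10a had 0 and 6. Among relatives of Rtp4, Rtp3 at 0.529 and 1.11 CPM gave -1.06 (95% interval -2.17 to 0.05), Rtp1 had 2 counts in each genotype and Rtp2 had 0 in TG and 2 in WT. Ifi44l, the paralogue of Ifi44 on chromosome 3, had 2 counts in all TG and 5 in all WT libraries, where Ifi44 had 183 to 216 counts in each TG and 1391 to 2046 in each WT library.

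**Figure D4:**
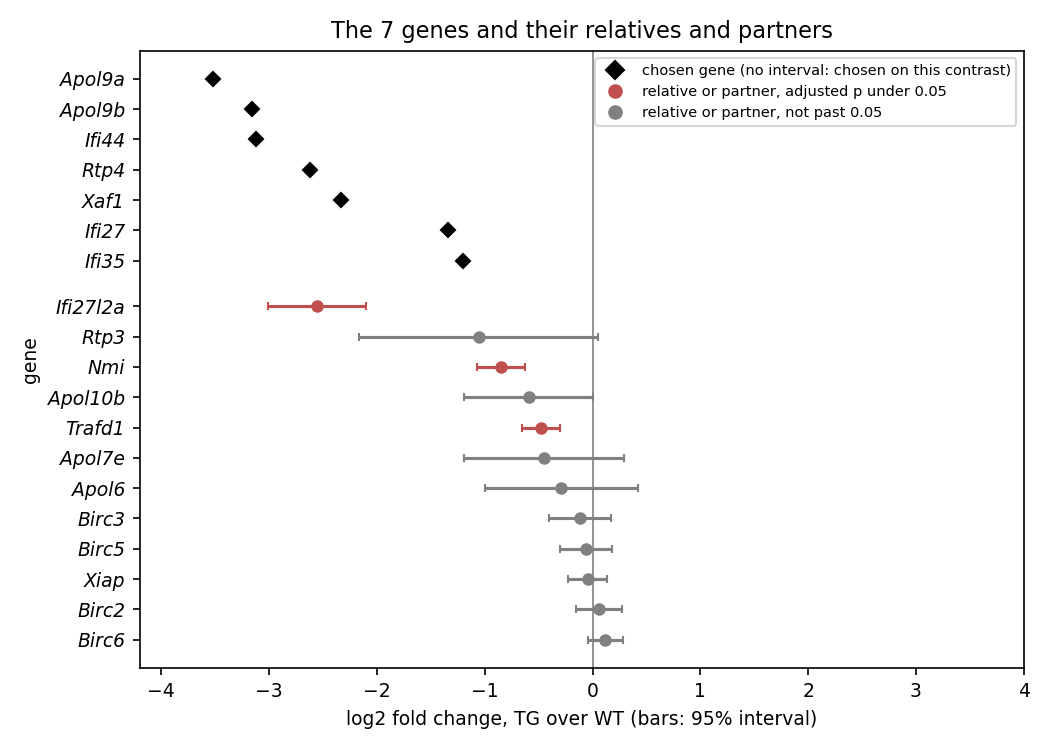
Log2 fold change of TG over WT for the 7 genes (diamonds, no interval because this contrast chose them) and for their 12 tested relatives and partners (circles, bars for the 95% interval). Ifi27l2a at -2.55, Nmi at -0.85 and Trafd1 at -0.48 passed an adjusted p of 0.05, and the inhibitor of apoptosis genes lie between -0.12 and 0.12.

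Apart from the relative Ifi27l2a, which overlaps Ifi27 and was called, no tested gene next to the 7 loci was called in edgeR. Within 100 kb, 21 tested genes other than members and relatives had log2 fold changes between -0.35 and 0.28 with a median of -0.02. EdgeR called 0 of them, 1 had an unadjusted p under 0.05, DESeq2 called 1 and limma-voom called 0. Over all tested genes edgeR called 1.05%, and 0 of 21 genes lies near that share. The gene with an unadjusted p under 0.05 was Ddx24, an RNA helicase gene that ends 8342 bases before Ifi27. It measured 130 ± 8.26 CPM in TG against 166 ± 13.1 CPM in WT (SD, n = 3 each), with a fold change of -0.35 on the log2 scale (95% interval -0.55 to -0.15, adjusted p = 0.205 in edgeR).

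Neighbours also lay close to Ifi35, where Vat1 begins 47 bases beyond the end of the gene and Rpl27 ends 2816 bases before it. Vat1 measured 180 ± 19.2 CPM in TG against 178 ± 13.2 CPM in WT (SD, n = 3 each), with a fold change of 0.02 on the log2 scale, and Rpl27, a ribosomal protein gene, also had 0.02. Masp1, which overlaps the annotated span of Rtp4, had -0.25 (95% interval -0.51 to 0.00). Beside Xaf1, the nearest tested genes were 4930563E22Rik at 0.28 (95% interval -0.43 to 0.98) and Smtnl2 at -0.09. Ptgfr near Ifi44 had -0.26 (95% interval -0.83 to 0.32), Rbfox2 near Apol9a -0.01, Myh9 near Apol9b -0.01 and Ppp4r4 near Ifi27 -0.17.

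The pathway upstream of these genes was read by role. Of the 9 listed interferon genes, Ifng, Ifnl2 and Ifnl3 had a row in the table, with at most 16 counts in all libraries of a genotype, and the other 6 were not analysed here. None of the 3 had enough counts to be tested. None of the 6 receptor genes and none of the 3 kinase genes was called by edgeR, by DESeq2 or by limma-voom, and the edgeR p before adjustment was under 0.05 for 0 of them. Ifnar1, a subunit of the type I receptor, gave -0.04 (95% interval -0.23 to 0.14), and Ifnar2, its partner, -0.02 (95% interval -0.22 to 0.18).

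Of the 6 transcription factor genes 4 fell, beside 1.02% of all tested genes. Irf9, whose product helps to bind the ISRE, fell from 112 ± 11.0 to 40.9 ± 2.13 CPM (SD, n = 3 each), with -1.46 on the log2 scale (SE 0.10, adjusted p = 5.78e-05 in edgeR). On the log2 scale Irf7 had -3.78 and Stat2 -1.302, and both passed the test. Irf3, which is not interferon-inducible, had 0.04 (95% interval -0.21 to 0.30). Of the 4 genes that restrain the pathway Usp18 fell by 3.51 on the log2 scale, and Socs1, Socs3 and Irf2 were not called.

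Among 25 other interferon-inducible genes listed as outside the large families, 17 fell and 0 rose in edgeR, and 24 had an unadjusted p under 0.05. DESeq2 called 21 of them and limma-voom 14. The list holds related genes, such as Sp100, Sp110 and Sp140 or Phf11a, Phf11b and Phf11d, so these are not all unrelated genes. This list too was written with earlier results of these libraries known. Its median log2 fold change was -1.26, beside 0.00193 over all tested genes. The smallest p values belonged to Lgals3bp, a secreted glycoprotein gene, which fell by 2.47 on the log2 scale, Herc6 by 1.77, the kinase gene Eif2ak2 by 1.55 and the helicase gene Ddx60 by 2.17. Ifi30, a lysosomal thiol reductase gene, had -0.04 (95% interval -0.33 to 0.24) at 38.2 ± 5.77 CPM in TG against 39.3 ± 4.38 CPM in WT (SD, n = 3 each). Ifi30 was named after its values were seen.

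The genes whose profile was most like that of the 7 were found by the root-mean-square distance, over the 6 libraries, between log2 CPM centred on each gene's mean and the median of the members' centred profiles. This measure takes both the size of the genotype difference and the order of the animals into account. The nearest 8 other genes were Lgals3bp at a distance of 0.0744, Ifi27l2a at 0.132, Oasl1 at 0.141, Gbp3 at 0.143, Gm4951 at 0.144, Ifi213 at 0.160, Gbp6 at 0.200 and Oasl2 at 0.206. The median over all other tested genes was 1.29. The members were chosen for their genotype difference, so a gene without that difference lies far from them by construction, and the contrast is no test. Among the members themselves Rtp4 at 0.0967 and Xaf1 at 0.129 lay closest to the median profile and Ifi35 at 0.679 and Ifi27 at 0.621 farthest. That profile is the median of the same 7 genes. Rtp4 holds their median log2 fold change of -2.62, so this order largely restates the size of the fold changes and is no test either. Lgals3bp measured 157, 152 and 161 CPM in TG and 860, 753 and 993 CPM in WT replicates 1 to 3.

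Markers of immune cells were set beside these differences. Of the 18 macrophage and myeloid markers 16 had log2 fold changes below 0, with a median of -0.51, and their summed level was 425 to 471 CPM in TG and 471 to 749 CPM in WT. EdgeR called 0 of them, 10 had an unadjusted p under 0.05, DESeq2 called 6 and limma-voom 0, and no marker was at 0 in all libraries. The share of all tested genes with an unadjusted p under 0.05 is not given here. Ptprc had -0.96 (SE 0.20), C1qa -0.80 (SE 0.18) and Laptm5 -0.65 (SE 0.15), whereas Lyz2 had -0.08 (SE 0.15). Lyz2 was picked with its values in view.

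Of 12 lymphocyte markers 11 were in the table and 6 were tested, with 0 called and a median of -0.47, and the list summed to 5.51 to 7.82 CPM in TG and 7.93 to 9.74 CPM in WT. In plasmacytoid dendritic cells, known for making interferon, the marker Siglech had 30 counts in all TG and 35 in all WT libraries, and 0 of 4 tested markers of that list were called. The part of immune cells in the level of the 7 genes was not tested. Haemoglobin and erythroid markers summed to 194 to 216 CPM in TG and 119 to 134 CPM in WT, the opposite direction, and 3 of 5 rose.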

How the data were processed

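Ovarian RNA of 6 mice was read on the BGISEQ-500 platform (per the labels' protocols). Tools listed in the submitters' processing notes, with no role given, are RSEM 1.3.1, Bowtie2 and DESeq2 1.4.5, and the build is mm10. The authors deposited estimated counts (RSEM-like expected counts, with 8.50% to 9.12% of values not whole) and a second set of columns whose unit the headers do not give. The latter deposited values were taken as FPKM, because they give nearly the same implied length per gene in all libraries (median ratio of longest to shortest 1.007 over 3810 genes with more than 1000 counts). Group averages in the deposited table were left out.

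Genes were joined by Entrez number to RefSeq on GRCm38.p6 (18165 of 18280 matched). Counts were rounded and fitted with edgeR 4.0.16 under R 4.3.3, using TMM factors (0.990 to 1.015), filterByExpr (minimum count 10, total 15), quasi-likelihood two-sided test, genotype as the only factor, and Benjamini-Hochberg adjustment over 14124 genes at 0.05. The fit was tested on simulated data. CPM use effective library sizes. A standard error is the log2 fold change over the square root of F.

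The members, the gene lists and the rule for named genes were chosen with earlier results of these data known. The named genes were all members and relatives, the nearest tested neighbours, the 8 nearest profiles, and up to 4 pathway genes, 4 genes of the list of other interferon-inducible genes and 3 markers per list with the smallest p, beside others said to be chosen later or given as a check. Alternatives were other composition factors, other filters, DESeq2 1.42.0, limma 3.58.1 (voom, and trend on log2(FPKM + 1) or log2(FPKM + 0.1) for genes with at least 1 FPKM in 3 samples), a replicate block, leaving out each library, the Apol9 pair summed, and neighbours within 250 kb. Protein sequences were not used here. Values of some listed genes are not reported here.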

Additional observations from a re-analysis of the deposited data

How the results depend on the processing

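Over 18 alternative settings no direction of the 7 genes turned, and 120 of 124 of their values moved by less than the spread between replicates. On log2(FPKM + 1), where the added 1 makes differences of low values smaller, Ifi44 had -2.83, Apol9a -2.98 and Apol9b -2.75. The median of the 7 genes was -2.38 when the fit omitted both TG replicate 2 and WT replicate 3, a choice made after seeing the data, and ranged from -2.76 to -2.47 with each library left out in turn. The genes called over all tested genes numbered 122 to 178 with a library left out. In the same fits the other listed interferon-inducible genes called numbered 14 to 20, the relatives and partners 2 to 3, the pathway genes 5 and the neighbouring genes 0. DESeq2 called 204 genes, 10 cell type markers against 3 in edgeR, and 1 neighbouring gene. That neighbour count was also 1 with TG replicate 2 and WT replicate 3 left out and 0 within 250 kb in edgeR. Markers called ranged from 3 to 8 with a library left out, 8 being without WT replicate 2. The cause of these shifts was not tested.

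Replicate numbers are shared by the genotypes. Deviations of same-numbered libraries correlated at 0.228, 0.080 and 0.094 across genes, so the numbers were not taken to pair animals, although each of the 6 libraries correlated best with its own number. With the replicate number as a block 159 genes were called against 149 without it, and the median of the 7 genes was -2.61. The precision rests on 3 animals per genotype and, for the Apol9 pair, on 94 to 137 counts in each TG library, and the effect of depth on the division of that pair was not tested.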
